A study of Mus musculus with 3 samples.

Results

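The genes described here are the 78 mouse genes of mitochondrial ribosomal proteins, taken from 55536 gene rows of which 22028 were annotated as protein-coding. They were chosen by name alone: every gene whose symbol begins with Mrpl or Mrps followed by a digit, that has a protein-coding transcript and that is not marked as a pseudogene. Of the 78 genes, 51 encode proteins of the large subunit and 26 encode proteins of the small subunit. The remaining gene, Mrps36, carries the name but is now known in yeast and human as part of the 2-oxoglutarate dehydrogenase complex. Subunits were assigned by the protein's place in the ribosome, so Mrps18a and Mrps30 count with the large subunit.

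The RNA came from the cytosolic fraction of primary bone-marrow-derived macrophages (BMDM) of C57BL/6J mice. All 3 libraries belong to 1 group and are labelled biological replicates 1, 2 and 3. The cells were pre-treated for 12 h with Lipid A (100 ng/ml), the part of bacterial lipopolysaccharide that Toll-like receptor 4 recognises, left for 12 h after washout and given Lipid A (100 ng/ml) again for 120 min. There was no untreated group, so no effect of Lipid A could be measured, and the labels do not say whether each replicate came from its own animal or culture. The SD may therefore hold technical spread only. The sex and age of the mice were not collected. Levels are given in TPM, a measure of transcript abundance that is divided by transcript length and so allows one gene to be set beside another, as the mean ± SD of the 3 libraries unless a library is named. Both fewer cells of a type and less RNA per cell would lower such a bulk value, and they cannot be told apart.

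Mitochondria keep a small genome of their own and translate its messages, all of them for subunits of the respiratory chain and ATP synthase, on their own ribosomes. The ribosomal RNAs come from that genome, whereas every mitochondrial ribosomal protein is encoded in the nucleus, translated in the cytosol and imported. Some of these proteins have counterparts in the bacterial ribosome and the others are found only in mitochondria. In macrophages, the response to lipopolysaccharide is known to include a shift between respiration and glycolysis.

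The promoters are shown first, because they are a feature that the choice by name did not use. A 300-base promoter (250 bases before the RefSeq start and 50 after it, GRCm38.p6) was matched by symbol for 69 of the 78 genes. Of these, 25 (36.2%) held CCGGAAG on either strand, the core letters bound by ETS factors such as GABP, against 9.12% of the promoters of 27025 genes and 21.6% of 7186 protein-coding genes with a mean of at least 1 TPM. The letters AAGATGGC, part of the motif of YY1, stood in 12 (17.4%), against 2.88% of all genes and 5.69% of the detected protein-coding genes. GCGCATGC, the core of the motif of NRF1, stood in 8 (11.6%), against 2.80% and 6.25%. At least 1 of these 3 words was held by 37 promoters (53.6%), against 13.8% and 30.4%. GGGCGG, the Sp1 box, stood in 34 (49.3%), against 35.9% and 66.3%, and TATAAA in 4 (5.80%), against 14.2% and 6.64%. The median GC content was 58.3% for the mitochondrial ribosomal protein genes, against 52.7% for all genes and 61% for the detected protein-coding genes. Each word was searched on its own, so matches of different words may overlap, and they are matches of letters, not measured binding sites.

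The following are the 4 stretches of 120 bases before the RefSeq start that hold 1 of the 3 words and touch no annotated exon. They are read 5′ to 3′ on the strand of the gene, with the ETS letters (CCGGAAG, or CTTCCGG for the other strand) in capitals. They belong to Mrpl52 (chr14:54426789-54426908, plus strand), Mrpl34 (chr8:71464806-71464925, plus strand), Mrpl58 (chr11:115403632-115403751, plus strand) and Mrps22 (chr9:98601680-98601799, minus strand), and the sequences are those of RefSeq on GRCm38.p6.
Mrpl52: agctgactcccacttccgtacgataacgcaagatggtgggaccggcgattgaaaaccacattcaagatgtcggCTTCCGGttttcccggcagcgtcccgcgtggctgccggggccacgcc
Mrpl34: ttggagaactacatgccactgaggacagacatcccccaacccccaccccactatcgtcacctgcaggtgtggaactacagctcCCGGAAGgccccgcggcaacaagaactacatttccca
Mrpl58: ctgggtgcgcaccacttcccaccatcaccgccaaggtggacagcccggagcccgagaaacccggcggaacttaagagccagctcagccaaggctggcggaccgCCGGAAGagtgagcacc
Mrps22: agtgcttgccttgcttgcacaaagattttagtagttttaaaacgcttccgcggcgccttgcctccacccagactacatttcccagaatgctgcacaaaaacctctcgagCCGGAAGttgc
The ETS letters lie within the last 50 bases before the start in all 4, and the 4 genes lie between the second and the sixtieth of the 78 by level: Mrpl52 averaged 50.5 TPM, Mrpl34 14.9, Mrpl58 9.57 and Mrps22 5.90.

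All 78 genes reached 1 TPM in each of the 3 libraries, a level reached by 39.1% of protein-coding genes. Their median was 9.56, 9.40 and 9.06 TPM in replicates 1, 2 and 3 (9.34 ± 0.26), against 7.51 ± 0.58 TPM over the 8973 protein-coding genes that averaged 1 TPM or more. Together they summed to 996, 949 and 919 TPM. A mean of at least 5 TPM was reached by 65 of the genes, at least 10 by 35, at least 20 by 9 and at least 50 by 2. The 10 highest genes held 34.9% of the summed TPM.

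**Figure D1:**
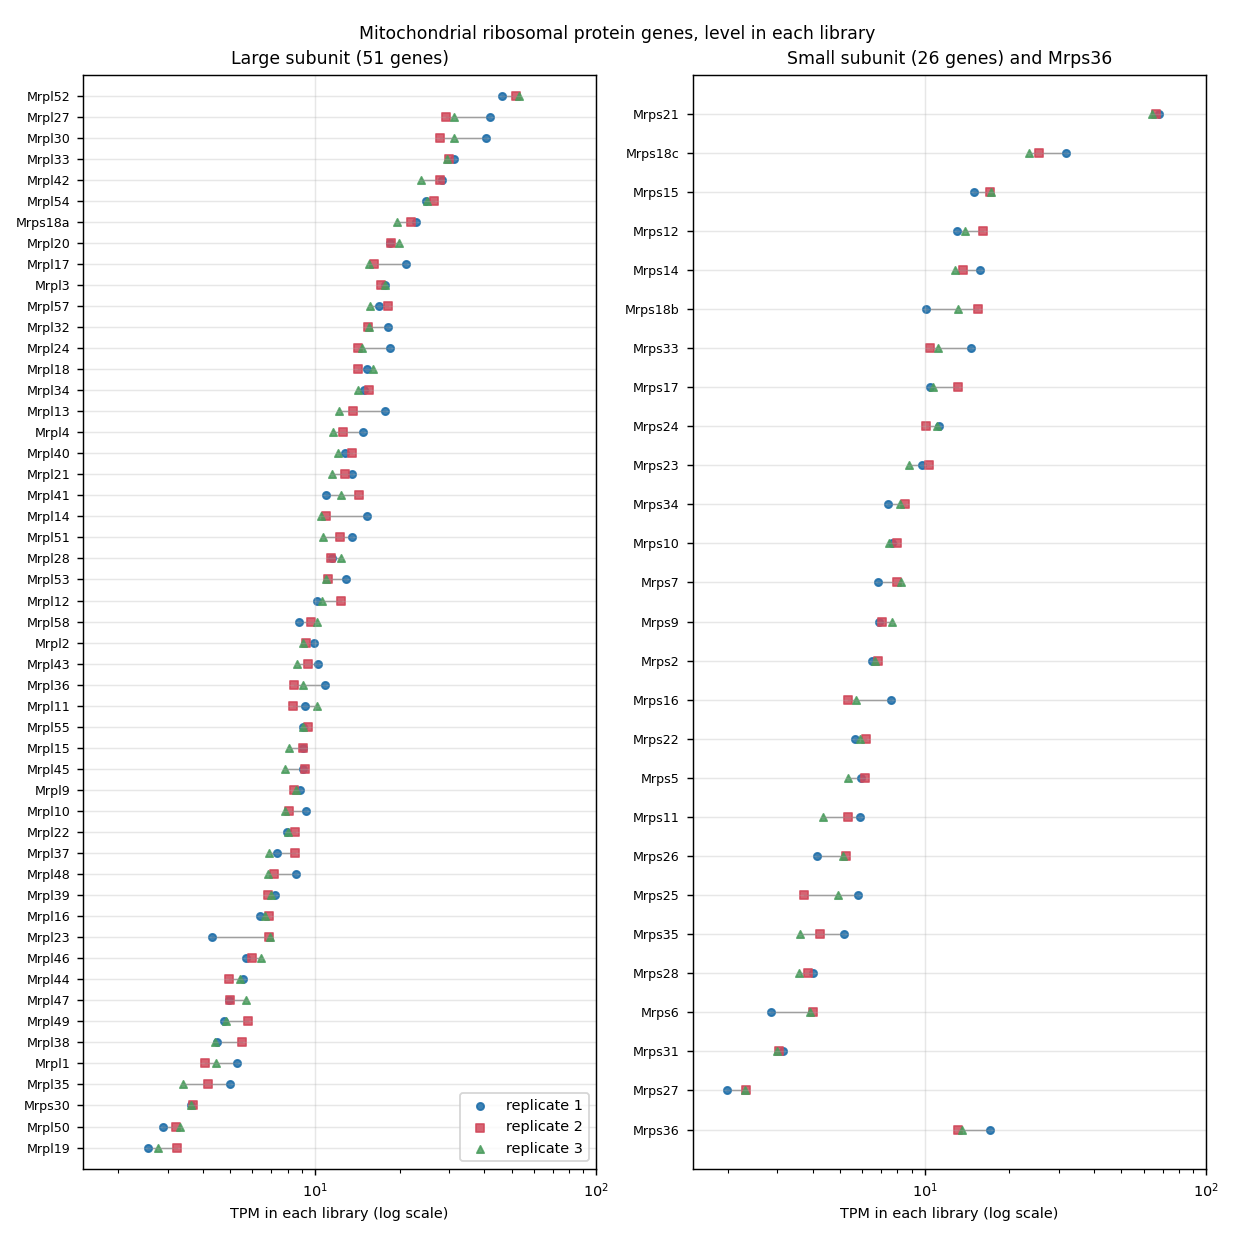
Level of each of the 78 genes in each of the 3 libraries, in TPM on a log axis, with large-subunit genes on the left and small-subunit genes and Mrps36 on the right; the grey line joins a gene's lowest and highest library. Mrps21, at 66.3 TPM on average, and Mrpl52, at 50.5 TPM, stand above the rest, and Mrps27, at 2.20 TPM, is the lowest.

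Mrps21, a small-subunit protein with a bacterial counterpart, was the highest of the 78 at 68.2, 66.4 and 64.2 TPM in replicates 1, 2 and 3 (mm10, ENSMUSG00000054312.6, chr3:95862634-95871519). Mrpl52, a large-subunit protein found only in mitochondria, followed at 46.4, 52.0 and 53.2 TPM (ENSMUSG00000010406.12, chr14:54426909-54429756). Both stood above every other gene of the family in each library. Mrpl27, whose bacterial counterpart reaches towards the peptidyl transferase centre, had 41.9, 29.3 and 31.1 TPM (ENSMUSG00000024414.13, chr11:94653767-94660089). Mrpl30 had 40.5, 27.8 and 31.1 TPM, and Mrpl33 had 31.3, 30.1 and 29.4 TPM. Mrpl27 and Mrpl30 were both highest in replicate 1, while Mrpl33 was nearly even, and the order of these 3 genes differed between libraries. Mrpl42 had 28.4, 27.8 and 23.8 TPM. Among small-subunit genes, Mrps18c followed Mrps21 with 31.7, 25.4 and 23.5 TPM, Mrps15 had 14.9, 17.1 and 17.2 TPM, and Mrps12 had 13.1, 16.1 and 13.9 TPM. Mrps14 had 15.7, 13.7 and 12.9 TPM, close to Mrps12. Apart from Mrps21 and Mrps18c, no small-subunit gene passed 20 TPM in any library.

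At the low end, Mrps27, a small-subunit protein with pentatricopeptide repeats, had 1.98, 2.32 and 2.31 TPM in replicates 1, 2 and 3 (ENSMUSG00000041632.7, chr13:99344786-99415562). Mrpl19 had 2.55, 3.23 and 2.77 TPM, and Mrps31 had 3.14, 3.05 and 3.0 TPM. Mrps27 was below both in every library. Mrpl50 had 2.88, 3.22 and 3.32 TPM, and Mrps6 had 2.85, 4.0 and 3.92 TPM. Mrps30, which sits in the large subunit despite its name, was the most even gene on TPM as deposited, at 3.63, 3.69 and 3.63 TPM. Mrps28 had 4.02, 3.84 and 3.59 TPM, Mrps35 had 5.19, 4.25 and 3.61 TPM, and Mrpl35 had 4.99, 4.18 and 3.41 TPM. Mrpl1, whose bacterial counterpart forms the stalk beside the exit site for tRNA, had 5.31, 4.07 and 4.47 TPM. On TPM as deposited, all 4 were highest in replicate 1. When the protein-coding genes of each library were scaled to the same total, none of them was. Mrps28, Mrps35 and Mrpl35 were then highest in replicate 2 and Mrpl1 in replicate 3. The lowest expected count of any of the 78 genes in any library was 81.9, for Mrps6 in replicate 1, and the highest was 2456, for Mrpl45 in replicate 2.

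Large-subunit genes stood above small-subunit genes in all 3 libraries. Their medians were 10.2, 9.73 and 10.2 TPM for the 51 large-subunit genes, against 7.15, 7.53 and 7.57 TPM for the 26 small-subunit genes. On the log2(TPM + 1) scale the difference of medians was 0.46, 0.33 and 0.38, a mean of 0.39 ± 0.07. The mean is larger than its spread between libraries, but that SD covers the same genes each time and not the spread between genes. The ranges overlapped widely, since the highest of the 78 genes belongs to the small subunit and one of the lowest, Mrpl19, to the large.

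The 46 genes with a bacterial counterpart had medians of 10.3, 9.80 and 10.4 TPM, against 8.60, 8.53 and 7.86 TPM for the 31 listed as mitochondria-specific. Those 31 include Mrps18a and Mrps18b, although both are paralogues related to bacterial S18. The difference of medians was 0.24, 0.18 and 0.36 on the log2(TPM + 1) scale, a mean of 0.26 ± 0.09. Within the large subunit it was 0.25 ± 0.03 and within the small subunit 0.41 ± 0.05. Among genes that share no exon base with another gene, however, the difference was -0.06, the opposite direction, so it cannot be given as a property of the whole family.

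Genes with shorter transcripts stood higher. The Spearman correlation of mean TPM with mean transcript length was -0.68 over the 78 genes and -0.16 over the 8973 protein-coding genes, both descriptions across genes, which are not independent replicates and here share the length that TPM divides by. The median length was 1036 bases for the 78 genes, against 2478 bases for the protein-coding genes. It was 1065 bases for large-subunit against 1006 bases for small-subunit genes, and 970 bases for genes with a bacterial counterpart against 1281 bases for mitochondria-specific genes.

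Around the peptidyl transferase centre, where peptide bonds form, the 4 genes Mrpl2, Mrpl3, Mrpl16 and Mrpl27 had a median of 13.5 ± 0.304 TPM. Mrpl3 was nearly level at 17.8, 17.2 and 17.7 TPM in replicates 1, 2 and 3, while Mrpl2 had 9.94, 9.33 and 9.07 TPM and Mrpl16 had 6.39, 6.90 and 6.65 TPM. Mrpl27 varied most of the 4 on TPM as deposited, with its highest library 1.43-fold above its lowest. When the protein-coding genes of each library were scaled to the same total (rescaled TPM), its ratio was 1.16 and that of Mrpl16, 1.32, was the largest of the 4. Along the exit tunnel, through which the new chain leaves, Mrpl24 stood highest with 18.5, 14.3 and 14.7 TPM. Mrpl45, which in human mitochondria helps to hold the ribosome at the inner membrane, had 9.05, 9.26 and 7.86 TPM, and Mrpl22 had 7.97, 8.51 and 8.02 TPM. Mrpl47 had 4.97, 5.0 and 5.71 TPM and Mrpl23 had 4.33, 6.87 and 6.91 TPM, so the tunnel genes differed among themselves by more than each differed between libraries. The median of these 5 genes was 8.11 ± 0.348 TPM.

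The stalk, which recruits translation factors, is encoded by Mrpl10, Mrpl11 and Mrpl12, and its genes lay near the median of the family. Mrpl10 had 9.32, 8.10 and 7.84 TPM, Mrpl11 had 9.22, 8.39 and 10.2 TPM, and Mrpl12, which in human cells also binds the mitochondrial RNA polymerase, had 10.2, 12.4 and 10.6 TPM. The library values of Mrpl10 and Mrpl11 overlapped, while Mrpl12 was the highest of the 3 in every library and did not overlap with Mrpl10. In the central protuberance, Mrpl18 had 15.3, 14.3 and 16.1 TPM and Mrpl40 had 12.8, 13.6 and 12.1 TPM. Mrpl48 had 8.60, 7.19 and 6.80 TPM, Mrpl46 had 5.68, 5.98 and 6.43 TPM, and Mrpl38 had 4.50, 5.53 and 4.43 TPM. Mrpl18 and Mrpl40 did not overlap with the other three in any library.

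In the small subunit, the proteins that line the path of the mRNA are encoded by Mrps5, Mrps12 and Mrps24. Mrps5 had 5.93, 6.14 and 5.34 TPM, below Mrps12 in each library, and Mrps24 had 11.2, 10.1 and 11.1 TPM. The 3 paralogues related to bacterial S18 take different places: Mrps18c and Mrps18b in the small subunit and Mrps18a in the large. Mrps18a had 22.9, 21.9 and 19.6 TPM and Mrps18b had 10.1, 15.5 and 13.2 TPM, so Mrps18b was the lowest of the 3 in every library. Of the products that also work outside the ribosome, Mrpl58, a peptidyl-tRNA hydrolase that releases stalled chains, had 8.80, 9.73 and 10.2 TPM. Mrps36, which is not counted here as a part of either subunit, had 17.0, 13.2 and 13.6 TPM.

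Genes whose products work with the ribosome were mostly lower than its proteins. The 5 ribosomal proteins with other names had a median of 8.70 ± 0.796 TPM, with Chchd1 at 21.9 ± 0.742, Aurkaip1 at 19.1 ± 1.48, Dap3, a GTP-binding protein of the small subunit, at 8.70 ± 0.796 and Gadd45gip1 at 2.07 ± 0.142. Of the 12 mitochondrial translation factors, 11 reached 1 TPM in all libraries, with a median of 2.06 ± 0.065 TPM. Tufm, the elongation factor that delivers aminoacyl-tRNA, was highest at 11.6 ± 0.895, followed by Gfm1, the translocation factor, at 6.89 ± 0.538 and Mtif2, an initiation factor, at 4.82 ± 0.388, and Mtfmt, which formylates the initiator tRNA, was lowest at 0.853 ± 0.219. Of the 26 assembly factors, 19 reached 1 TPM in all libraries, with a median of 2.34 ± 0.186 TPM. Mpv17l2 was highest at 11.0 ± 0.507, with Grsf1, an RNA granule protein, at 10.5 ± 0.514 and Rbfa at 10.5 ± 0.931, and Mettl15, a methyltransferase, was lowest at 0.207 ± 0.055. Each of these lists lay far below the 84 nuclear genes of respiratory chain and ATP synthase subunits, with a median of 35.5 ± 3.83 TPM, and the 77 cytosolic ribosomal protein genes, with a median of 163 ± 21.5 TPM.

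**Figure D2:**
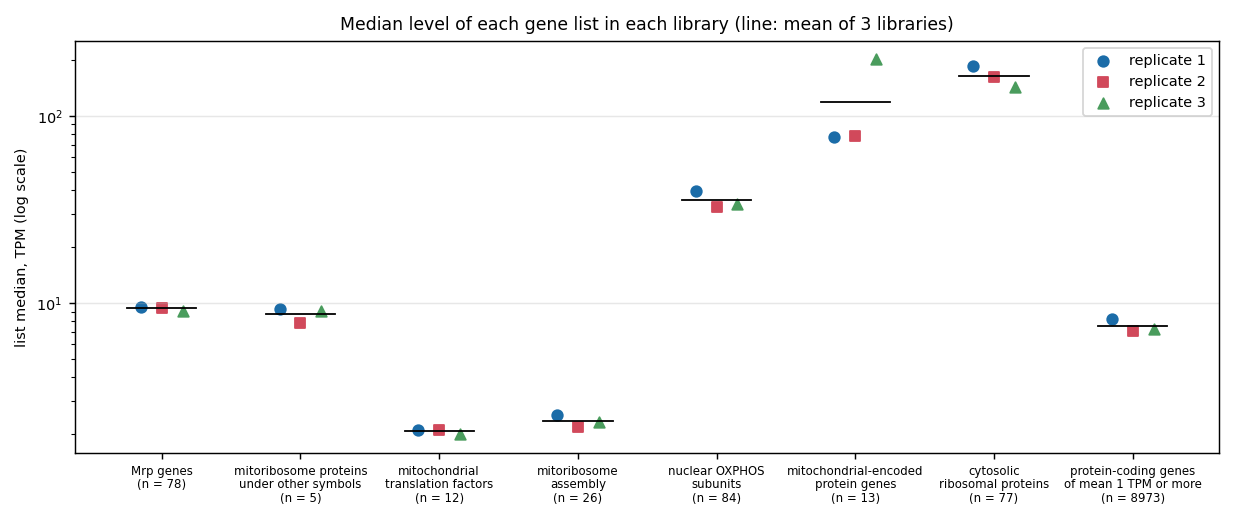
Median level of each gene list in each of the 3 libraries, in TPM on a log axis, with the mean of the libraries as a line and the number of genes under each name. The 78 mitochondrial ribosomal protein genes sit between 9.06 and 9.56 TPM, and only the mitochondrial-encoded genes have a library, replicate 3, far from the other two.

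The 13 protein genes of the mitochondrial genome, whose messages these ribosomes translate, had a median of 77.07, 77.99 and 200.4 TPM in replicates 1, 2 and 3. Their median stood higher in replicate 3. The median of the 78 ribosomal protein genes was lowest there on TPM as deposited, but on rescaled TPM it was 29.5, 35.5 and 33.4 and lowest in replicate 1. No test was made between the lists.

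Sequencing depth, in expected counts, was 29376859 for replicate 1, 64822118 for replicate 2 and 37665844 for replicate 3, and 32.5%, 26.5% and 27.1% of the TPM fell on protein-coding genes. That share moves every TPM value, so levels were also compared on rescaled TPM. All 8 macrophage markers, Cd68 and Csf1r among them, reached 10 TPM in every library. Of the markers of other cell types, no T and NK cell, B cell, fibroblast or erythroid gene reached 1 TPM in all libraries. Cd3g, Col3a1 and Hba-a1 were at 0, while the B cell marker Cd79b had 1.10, 0.91 and 1.44 TPM in replicates 1, 2 and 3. Among 8 neutrophil markers, S100a9 (3.48 ± 1.38 TPM) and S100a8 (2.08 ± 0.572 TPM) reached 1 TPM in all libraries. Among 5 endothelial markers, Kdr (4.21 ± 2.54 TPM) and Vwf (2.50 ± 0.759 TPM) did so too.

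Between libraries, 61 of the 78 genes differed by more than counting error (chi-square test of rounded expected counts against TMM-scaled library sizes, Benjamini-Hochberg adjusted over all genes), against 71.6% of all 14568 genes tested and 71.5% of the 4980 genes within the same range of summed counts. The share for the mitochondrial ribosomal protein genes, 61 of 78 (78.2%), is near the background, and the test compares these 3 libraries and not conditions. With only 2 libraries compared, the count was 33 (42.3%) without replicate 1, against 56.6% of all genes tested. It was 32 (41.0%) without replicate 2, against 52.4%, and 48 (61.5%) without replicate 3, against 53.4%. The share of the family thus lay below that of all genes without replicate 1 or 2 and above it without replicate 3. The 6 genes called in all of these comparisons, picked after their values were seen, were Mrpl12, Mrpl41, Mrpl51, Mrps15, Mrps18b and Mrps5. The share of all tested genes called in all of them was not computed, so this count cannot be called high or low. Mrps18b had the smallest adjusted p of the 78, 2.72e-25 by this chi-square test, with 10.1, 15.5 and 13.2 TPM.

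In TPM the size of the differences was small. The chi-square test used counts, which are not divided by transcript length, and ratios between libraries were not computed on them. On rescaled TPM the highest library exceeded the lowest by a median of 1.26-fold over the 78 genes, against 1.25-fold over 6910 protein-coding genes in their range of levels. A ratio above 1.5 was found for 9 of the 78 genes (11.5%), against 16.3% of those protein-coding genes, and none of the 78 passed 2, against 3.05%. On TPM as deposited, 3 genes passed 1.5: Mrpl23 at 4.33, 6.87 and 6.91 TPM, Mrps18b, and Mrps25 at 5.81, 3.72 and 4.91 TPM. The last of these was named after its values were seen. The share of protein-coding genes that passed 1.5 on TPM as deposited was not computed. Mrpl23 and Mrps18b were lowest in replicate 1, and Mrps25 in replicate 2. In the second deposited quantification, described below, Mrpl23 was lowest in replicate 3 instead, and its level is uncertain. The next most uneven genes with a mean of at least 5 TPM were Mrpl30, Mrpl13, Mrpl14, Mrpl27, Mrps16 and Mrps33, all highest in replicate 1. Mrpl13 had 17.8, 13.7 and 12.2 TPM, Mrpl14 had 15.3, 10.9 and 10.6 TPM, and Mrps16 had 7.59, 5.33 and 5.72 TPM. Mrps33 had 14.6, 10.4 and 11.2 TPM. On rescaled TPM the ratios of these 6 genes were between 1.14 and 1.21, below the median of the family. The 9 genes above 1.5 on that scale were Mrpl23, Mrps18b, Mrps6, Mrpl41, Mrps26, Mrpl19, Mrps17, Mrps12 and Mrpl38, named here after their values were seen. On rescaled TPM each of the 9 was lowest in replicate 1 and highest in replicate 2.

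Relative to other protein-coding genes, the family stood lower in replicate 1 and higher in replicate 2. The median deviation of the 78 genes from the mean of the other two libraries, in log2(TPM + 1), was 0.04 in replicate 1, where that of the protein-coding genes was 0.16, and 0.02 in replicate 2, where it was -0.11. In replicate 3 it was -0.07 for the family and -0.06 for the protein-coding genes. The difference between the family and the protein-coding genes was -0.12, 0.12 and -0.01, and in replicates 1 and 2 it kept its sign with a smaller pseudocount, on rescaled TPM, on TMM-scaled CPM and in the second quantification. The deviation of the family itself did not keep its sign in replicates 1 and 3: on rescaled TPM it was -0.22, 0.17 and 0.04. On that scale 23, 62 and 38 of the 78 genes lay above the median deviation of protein-coding genes in replicates 1, 2 and 3. The shift was not particular to the family. In replicates 1 and 2, translation factors had -0.28 and 0.12, ribosomal proteins with other names -0.23 and 0.09, and protein-coding genes -0.09 and 0.04. Assembly factors had -0.18 and 0.04, nuclear respiratory chain and ATP synthase genes 0 and 0, and cytosolic ribosomal proteins 0.05 and 0.10. Mitochondrial-encoded genes had -1.04 and -0.52. Replicate 1 was also the shallowest library and replicate 2 the deepest. The protein-coding share of TPM was largest in replicate 1 and smallest in replicate 2, whereas in the second quantification it was 13.4%, 15.4% and 13.4% and largest in replicate 2. The part of depth in these deviations was not tested.

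**Figure D3:**
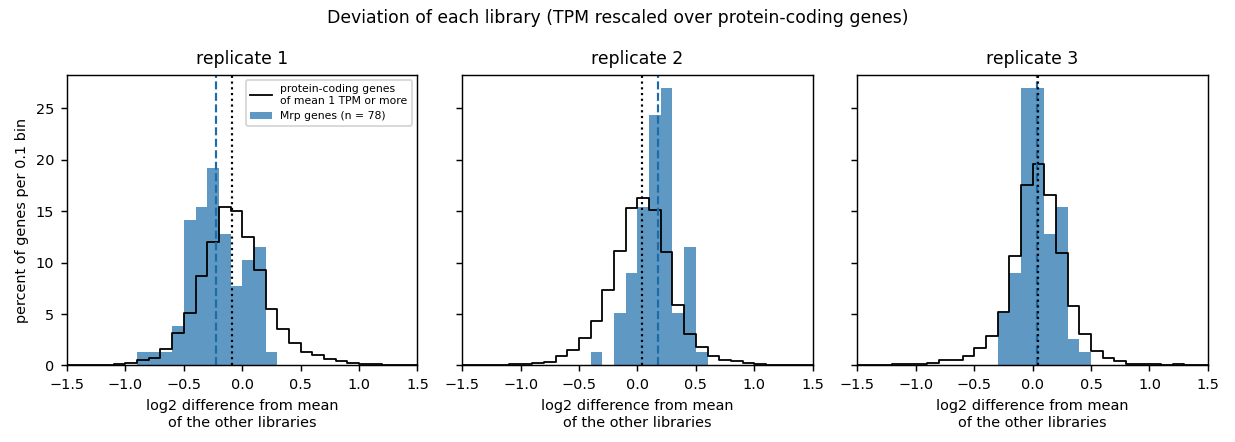
Log2 difference of each gene in 1 library from the mean of the other libraries, on TPM rescaled over protein-coding genes, 1 panel per library; filled bars are the 78 mitochondrial ribosomal protein genes, the outline is the protein-coding genes that averaged 1 TPM or more, and the dashed and dotted lines are their medians. The medians of the family are -0.22, 0.17 and 0.04 in replicates 1, 2 and 3, against -0.09, 0.04 and 0.05 for the protein-coding genes.

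Most of the RNA of these genes was annotated as message, but less of it than for protein-coding genes at large. In transcripts annotated as protein-coding lay 85.4% ± 0.603 of the TPM of the 78 genes (84.7%, 85.8% and 85.7% in replicates 1, 2 and 3), against 92.4% ± 0.586 over all protein-coding genes. Transcripts annotated for nonsense-mediated decay, the pathway that destroys messages with an early stop, took 6.21% ± 0.694, processed transcripts without an open reading frame 4.37% ± 0.253 and retained-intron transcripts 3.99% ± 0.305. The genes were unequal in this: 32 genes had at least 99% of their TPM in protein-coding transcripts, while 21 had under 90% and 13 under 50%. In those 13 the leading transcript was itself not annotated as protein-coding. The shares of other protein-coding genes at these limits were not computed, so the counts cannot be called particular to the family. The 92.4% is a share of summed TPM, in which abundant genes weigh most.

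**Figure D4:**
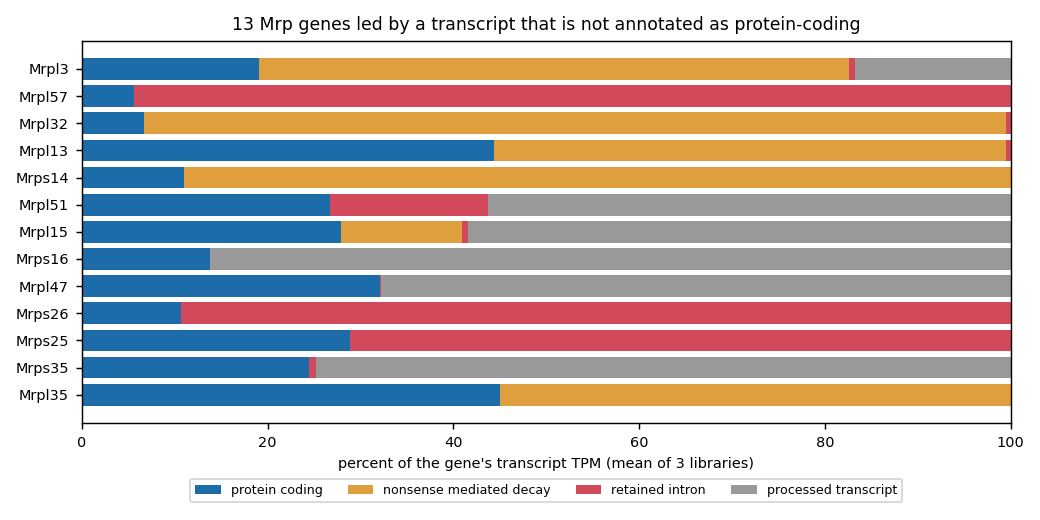
Share of each gene's transcript TPM by annotated transcript type, mean of the 3 libraries, for the 13 genes led by a transcript that is not annotated as protein-coding, ordered by level. Mrpl57, Mrpl32, Mrps26 and Mrps14 have the smallest protein-coding shares, at 5.70%, 6.65%, 10.7% and 11.3%.

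Mrpl57 had 94.3% ± 1.15 of its TPM in Mrpl57-202, a retained-intron transcript of 519 bases, at 15.9, 17.4 and 14.7 TPM, against 1.03, 0.80 and 1.04 TPM for its protein-coding transcript of 2877 bases. Mrps26 was similar, with 89.3% ± 0.406 in the retained-intron transcript Mrps26-201. Both genes kept this order in every library. Mrpl32, whose yeast counterpart is matured by a protease before it joins the ribosome, had 84.1% ± 2.69 in Mrpl32-201, annotated for nonsense-mediated decay, and Mrps14 had 88.7% ± 5.28 in Mrps14-201 of the same type. Mrpl3 was spread over more transcripts, with 44.5% ± 5.89 in Mrpl3-204, and its protein-coding share was 11.6%, 15.2% and 30.3% in replicates 1, 2 and 3, highest in replicate 3. Processed transcripts led Mrps16 (86.1% ± 1.14), Mrpl47 (67.6% ± 5.30), Mrpl15 (58.4% ± 0.756) and Mrpl51 (56.3% ± 3.31). As whole genes, Mrpl57 had 16.9, 18.2 and 15.8 TPM, Mrpl32 had 18.2, 15.4 and 15.6 TPM, Mrpl51 had 13.5, 12.3 and 10.7 TPM, and Mrpl15 had 9.09, 9.08 and 8.11 TPM. In all of these genes most of the TPM lay outside transcripts annotated as protein-coding. Mrps25, Mrps35 and Mrpl35 lie below 5 TPM and belong to the same 13.

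The authors deposited a second quantification of the same libraries, and it placed the genes in nearly the same order. The Spearman correlation of the second with the first over the 78 genes was 0.98, a description across genes that share their libraries. The median log2 ratio of the second over the first, both rescaled, was -0.03. Of the 78 genes, 76 reached 1 TPM in every library there, and 74 had the same leading transcript. The shares of all protein-coding genes for these counts were not computed. The 13 genes led by a transcript that is not protein-coding numbered 13 in the second quantification too, with Mrpl19 in place of Mrpl13. Mrpl13 was led by the protein-coding Mrpl13-205 at 52.8% in the second and by Mrpl13-202, annotated for nonsense-mediated decay, at 54.9% in the first. Mrpl48 was led by Mrpl48-204 in the second and by Mrpl48-207 in the first, both protein-coding.

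Mrpl23, an exit tunnel protein, was the only gene more than 2-fold apart, against 0.814% of protein-coding genes. It had 0.611, 1.34 and 0.562 TPM in replicates 1, 2 and 3 of the second quantification, against 4.33, 6.87 and 6.91 TPM in the first, a log2 ratio of -1.89 after rescaling. Its leading transcript Mrpl23-201 held 94.0%, 32.8% and 41.1% of its TPM in the first, so the split between transcripts was unstable too. The pseudogene Mrpl23-ps1 had 11.5, 9.16 and 9.17 TPM, above Mrpl23 in each library, and 7.17 TPM on average in the second quantification. Whether reads that match both the gene and its pseudogene were split between them in different ways was not tested. With the 2 quantifications this far apart, the level of Mrpl23 is uncertain. The other 4 pseudogenes of the family had at most 0.0867 TPM.

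**Figure D5:**
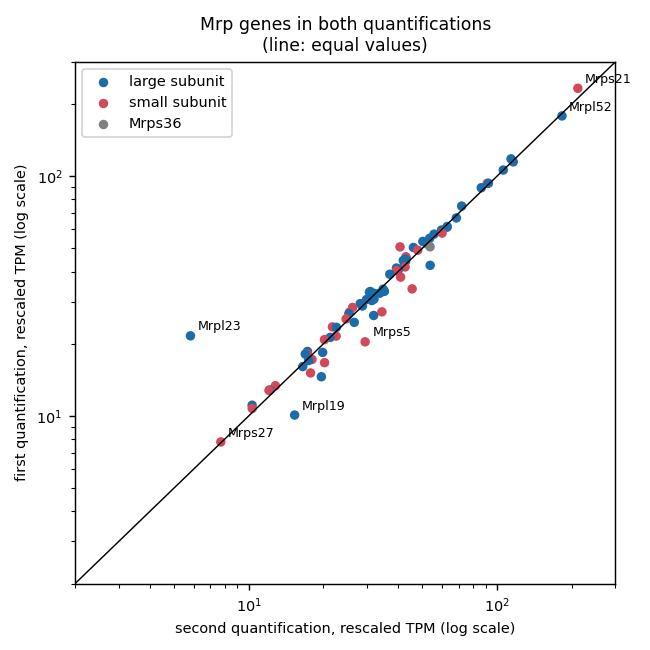
Mean level of each of the 78 genes in the first quantification (vertical) against the second (horizontal), both in TPM rescaled over protein-coding genes on log axes, with the line of equal values. Mrpl23 lies far above the line, at 21.6 against 5.83, and of the others only Mrpl19 is more than 1.5-fold off it.

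The genes lay on 17 chromosomes, with 11 of the 78 on chromosome 11. Exon bases were shared with another gene by 33 of them, on the opposite strand for 28 and on the same strand for 8. The proportion of all genes that share exon bases was not computed, so these counts cannot be called particular to the family. Whether the counting used strand is not given in the sources used here, so reads in shared stretches may be assigned to either gene. Mrps34 shares 763 exon bases on the same strand with Nme3 (1.79 TPM), Mrpl53 shares 695 of its 790 with Gm42688 (0.153 TPM), and Mrps25 shares 4590 on the opposite strand with Nr2c2 (3.00 TPM). Mrpl46 and Mrps11, a large-subunit and a small-subunit gene, lie head to head on opposite strands with 173 exon bases in common. Mrpl46 averaged 6.03 TPM and Mrps11 5.21 TPM.

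A protein-coding neighbour starting within 1000 bases upstream on the opposite strand was found for 18 of the 78 genes (23.1%), against 11.5% of protein-coding genes with a mean of at least 1 TPM and 6.77% of all protein-coding genes. Of these 18 neighbours, 11 had a mean of at least 1 TPM. The stretches between the starts of 6 such pairs are shown because they differ in how far the level of the ribosomal protein gene and its neighbour lie apart. They are read 5′ to 3′ on the strand of the ribosomal protein gene from RefSeq on GRCm38.p6, with ETS or NRF1 letters in capitals. They lie at chr5:100798599-100798626 (plus strand), chr19:6057786-6057843 (minus strand), chr1:37890412-37890476 (plus strand), chr13:14613166-14613239 (minus strand), chr13:99344706-99344785 (plus strand) and chr11:97041408-97041559 (plus strand).
Mrps18c and Helq: gtgaCTTCCGGcccgggaagcgcgggaa
Mrpl49 and Fau: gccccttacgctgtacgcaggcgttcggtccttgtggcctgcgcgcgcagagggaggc
Mrpl30 and Mitd1: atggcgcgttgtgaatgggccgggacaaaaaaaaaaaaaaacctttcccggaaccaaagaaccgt
Mrpl32 and Psma2: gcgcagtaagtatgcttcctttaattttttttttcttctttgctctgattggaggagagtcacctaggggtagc
Mrps27 and Ptcd2: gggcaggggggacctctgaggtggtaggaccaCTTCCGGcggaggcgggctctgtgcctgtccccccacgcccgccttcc
Mrpl10 and Lrrc46: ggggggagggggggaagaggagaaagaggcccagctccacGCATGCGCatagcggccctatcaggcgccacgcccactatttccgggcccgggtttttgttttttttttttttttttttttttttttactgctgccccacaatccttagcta

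The genes on the 2 sides of such a stretch could be far apart. Mrpl49 had 4.74, 5.79 and 4.85 TPM while Fau, which encodes a ubiquitin-like protein fused to cytosolic ribosomal protein S30, had 425, 370 and 334 TPM, with 58 bases between their starts. Mrps18c averaged 26.8 ± 4.30 TPM and Helq, a DNA helicase, 0.393 ± 0.0603 TPM, over 28 bases that hold the ETS letters. Mrpl10 averaged 8.42 ± 0.790 TPM and Lrrc46 0.0133 ± 0.00577 TPM, over 152 bases that hold the NRF1 letters. Mrpl32 averaged 16.4 ± 1.57 TPM and Psma2, a proteasome subunit, 30.9 ± 2.91 TPM. Mrpl30 averaged 33.1 ± 6.57 TPM and Mitd1 10.9 ± 0.850 TPM. In neither of these pairs was the neighbour near 0. Mrps27 averaged 2.20 ± 0.193 TPM and Ptcd2, a mitochondrial RNA-binding protein, 6.30 ± 0.577 TPM. Of the 11 pairs whose stretch a RefSeq promoter covers, 3 held an ETS, NRF1 or YY1 word between the starts. All 3 are among the pairs shown, so the pairs shown hold such words more often than the 11 do. The share over such pairs of other genes was not computed.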

How the data were processed

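Total RNA libraries of the cytosolic fraction, each from 1 µg of RNA per the labels, were used as deposited. Per the file headers, each library has expected counts and TPM by gene and by transcript on mm10 with GENCODE M21. A second deposited transcript table has estimated counts with their TPM, and these were added up by gene. Neither aligner nor quantifier nor strand setting is given in the sources used here. Rows without a gene (0.350% of the expected counts in replicate 1, 0.169% in replicate 2, 0.168% in replicate 3) did not enter library sizes.

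The expected counts were rounded. For the chi-square test a gene needed 10 counts in 1 library or more. Expected values followed library sizes scaled by TMM (edgeR 4.0.16, R 4.3.3), with Benjamini-Hochberg adjustment at 0.05, and the test was checked on simulated data. DESeq2 1.42.0 size factors were an alternative. Differences of medians used log2(TPM + 1). Figures were drawn with matplotlib 3.10.9, and the rest was computed with pandas 2.3.3, scipy 1.17.1 and numpy 2.4.6 on Python 3.11.15. Counting error is the only error the chi-square test covers. The count, 81.9 or more per gene and library, sets only the counting part of a level's precision. It does not cover further spread between libraries or how reads were split between genes and transcripts.

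The genes, role lists and tests were chosen with earlier results of these data known. Genes are named where they are the 5 highest or lowest of a subunit, belong to a role list, are among the 8 most uneven of mean 5 TPM or more, have at that level a leading transcript that is not protein-coding or differs between quantifications, or differ over 2-fold between quantifications. In the other lists the 3 highest and the lowest are named. Other names were picked after their values were seen. Mrps25, Mrps26, Mrps35 and Mrpl35 lie below 5 TPM.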

Additional observations from a re-analysis of the deposited data

How the results depend on the processing

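The count of genes at 1 TPM or more (76 to 78), the large-over-small difference (0.34 to 0.43) and the count led by a transcript that is not protein-coding (13) kept their direction and size under each alternative tried for them. The median level of the family was 4.79 TPM in the second quantification, 32.8 on TPM rescaled over protein-coding genes and 7.84 over protein-coding transcripts only. The difference between genes with a bacterial counterpart and mitochondria-specific genes reversed to -0.0568 among genes that share no exon base, and the cause was not tested. It ranged between 0.21 and 0.30 under the others. The median deviation in replicate 1 reversed to -0.15 on TMM-scaled CPM, -0.22 on rescaled TPM and -0.25 in the second quantification, and in replicate 3 to 0.0400 on rescaled TPM. In replicate 2 it was 0.20, 0.17 and 0.31. The share of TPM in protein-coding transcripts was 83.2% in the second quantification. The number of genes that differed between libraries was 32 to 48 when a replicate was left out, against 52.4% to 56.6% of all genes. It was 59 with DESeq2 size factors (71.1% of all genes), 57 with no filter (49.998%) and 73 in the second quantification (82.2%). Leaving out a replicate moved no gene's mean by more than 1.14-fold. The restriction to genes without shared exon bases, rescaling for the differences of medians, restriction to protein-coding transcripts and the alternatives for the leading transcript were added after seeing the data. No paired analysis was possible because there is 1 group.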
